A study of Mus musculus with 47 samples.

Results

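Canonical Polycomb repressive complex 1 (PRC1) was followed through the RNA of its chromobox and polyhomeotic subunit genes, Cbx2, Cbx6, Cbx7, Cbx8, Phc1, Phc2 and Phc3, in mouse embryonic stem cells (ESC) and in neural progenitor cultures (NPC) made from them. These 7 genes, taken as a list of names, were matched by symbol among the 35856 gene symbols measured, and all 7 were found. Without auxin, the summed Phc level stayed similar between stages, which was not tried under another scaling. Neural cultures traded Phc1 for Phc2, and had more Cbx2 and Cbx8. Cbx7 was also higher, a call that in the untagged line ended under another scaling. When SUZ12 was depleted throughout differentiation, Phc2 and Cbx7 fell, and no change of Phc1 or Cbx8 passed the test. In JARID2 NPC with auxin, Phc2 and Cbx8 were lower than in untreated JARID2 NPC, but beyond the effect of auxin in the untagged line Phc2 alone was called; Cbx7 did not pass the test.

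Polycomb repression rests on a pair of enzyme complexes. PRC2 methylates histone H3, and in canonical PRC1 a CBX protein reads that methyl mark through its chromodomain, while a PHC protein joins complexes to each other through its SAM domain and so helps to compact chromatin. The catalytic RING1 proteins, which ubiquitinate histone H2A, are shared with variant PRC1, which lacks CBX and PHC and does not need the PRC2 mark to find its sites. In stem cells CBX7 is known as the main CBX protein, and CBX2 and CBX8 are known to gain weight during differentiation. SUZ12 is a core subunit that PRC2 needs to be stable and active, and MTF2 and JARID2 are accessory subunits of alternative PRC2 forms.

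All lines were C57BL/6 embryonic stem cells that expressed Tir1, the plant adaptor that sends proteins with an auxin-inducible degron (AID) to the proteasome when auxin is present. The lines were SUZ12-AID, MTF2-AID, AID-JARID2 and an untagged line with Tir1 alone; no source used here says whether any of them is a single clone. Each line was collected with 50 µM auxin and untreated, as NPC and as ESC. ESC grew with LIF, CHIR99021 and PD0325901 and had auxin for 12 hours. NPC were made with bFGF for 72 hours and then the Hedgehog agonist SAG for 48 hours, with auxin for 5 days, so stage and length of exposure cannot be told apart in comparisons of auxin effects. SUZ12 NPC with auxin held 2 libraries and each of the other 15 groups held 3, which the series describes as biological replicates.

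Each library held between 3.24 and 8.71 M reads (M, 1000000), and all 47 libraries carry the same flow cell name. The degron acts on protein, so RNA does not check the depletion; Suz12 RNA differed by 1.06 ± 0.12 (log2) in SUZ12 NPC with auxin minus untreated (limma adjusted p = 1.01e-07), Mtf2 by 0.20 ± 0.08 in MTF2 NPC and Jarid2 by 0.66 ± 0.09 in JARID2 NPC (adjusted p = 0.153 and 5.3e-06). As a check of stage, 10 pluripotency genes summed to 38.1 to 1468 TPM in NPC, against 7407 to 8423 TPM in ESC, where TPM is a level per transcript length, scaled to the same sum in each library, that can be compared between genes. The sum of 10 neural progenitor genes was 278 to 2197 TPM in NPC, against 68.8 to 133 TPM in ESC. The lowest NPC values for neural genes and the highest for pluripotency genes came from SUZ12 NPC with auxin. The MTF2 and JARID2 libraries grouped as NPC have titles that say day 0, but their neural progenitor sums were 758 to 2016 TPM, above every ESC library.

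The genes lie on 5 chromosomes of GRCm38 (mm10). Cbx2 (chr11:119022962-119031270, plus strand) and Cbx8 (chr11:119036305-119040969, minus strand) are neighbours 5.03 kb apart. Cbx6 (chr15:79823896-79834688) and Cbx7 (chr15:79915807-79971119) are on the minus strand of chromosome 15, 81.1 kb apart. Phc1 (chr6:122317731-122340561, minus), Phc2 (chr4:128654702-128752881, plus) and Phc3 (chr3:30899371-30969415, minus) are on separate chromosomes.

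Promoters of 4 members are shown, because Phc1 and Phc2 changed in opposite directions between stages, and Cbx7 and Cbx8 were called lower with auxin in different lines. Each window is 300 bases of GRCm38.p6 from RefSeq, 250 before and 50 after an annotated start, written 5′ to 3′ on the gene's strand with CpG dinucleotides in capitals. Windows were found for 6 members, 8 windows in all, because Phc2 has 3 starts; Cbx2 was not matched. The Phc1 window is chr6:122340178-122340477 (minus strand), the upstream Phc2 window chr4:128654452-128654751 and the downstream Phc2 window chr4:128727321-128727620 (both plus), Cbx7 chr15:79932597-79932896 (minus) and Cbx8 chr11:119040864-119041163 (minus).
Phc1: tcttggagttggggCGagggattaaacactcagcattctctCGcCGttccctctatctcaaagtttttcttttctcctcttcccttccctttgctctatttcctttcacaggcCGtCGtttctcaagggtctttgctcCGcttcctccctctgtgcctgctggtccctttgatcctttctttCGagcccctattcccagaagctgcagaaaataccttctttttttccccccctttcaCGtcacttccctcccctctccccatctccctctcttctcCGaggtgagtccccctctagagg
Phc2 upstream start: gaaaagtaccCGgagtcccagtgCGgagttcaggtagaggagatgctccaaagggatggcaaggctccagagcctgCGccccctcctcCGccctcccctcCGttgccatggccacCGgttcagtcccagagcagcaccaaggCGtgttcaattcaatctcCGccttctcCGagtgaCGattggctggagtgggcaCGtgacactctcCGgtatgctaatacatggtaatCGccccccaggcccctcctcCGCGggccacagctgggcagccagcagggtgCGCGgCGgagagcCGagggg
Phc2 downstream start: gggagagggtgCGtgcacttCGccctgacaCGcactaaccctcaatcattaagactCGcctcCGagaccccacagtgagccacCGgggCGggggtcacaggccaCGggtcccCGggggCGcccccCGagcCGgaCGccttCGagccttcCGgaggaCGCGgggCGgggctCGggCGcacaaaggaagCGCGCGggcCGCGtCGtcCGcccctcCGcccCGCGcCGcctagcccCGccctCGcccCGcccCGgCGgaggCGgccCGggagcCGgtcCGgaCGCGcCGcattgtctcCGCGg
Cbx7: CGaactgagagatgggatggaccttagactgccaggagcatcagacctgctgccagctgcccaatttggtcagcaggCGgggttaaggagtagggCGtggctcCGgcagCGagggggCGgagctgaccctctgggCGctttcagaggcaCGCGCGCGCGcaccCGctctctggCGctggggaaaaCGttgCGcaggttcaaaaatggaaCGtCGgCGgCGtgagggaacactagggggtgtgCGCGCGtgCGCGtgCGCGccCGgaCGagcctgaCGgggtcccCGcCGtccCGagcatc
Cbx8: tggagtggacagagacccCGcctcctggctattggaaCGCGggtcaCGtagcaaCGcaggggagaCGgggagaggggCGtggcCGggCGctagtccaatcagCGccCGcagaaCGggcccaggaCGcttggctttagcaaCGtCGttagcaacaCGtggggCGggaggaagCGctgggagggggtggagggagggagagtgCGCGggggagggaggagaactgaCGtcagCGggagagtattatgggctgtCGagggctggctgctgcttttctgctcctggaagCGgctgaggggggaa
The Phc1 window held 9 CpG, against a median of 7 over 32851 promoters of that length. The other printed windows held more: 19 at the upstream and 45 at the downstream Phc2 start, 33 at Cbx7 and 24 at Cbx8. The remaining windows held 31 (Cbx6), 15 (Phc3) and 2 (the middle Phc2 start). On either strand, the E-box CACGTG occurred in 4 of the 6 matched members (Cbx6, Cbx8, Phc2 and Phc3), for Phc2 in the upstream window only. It occurred in 7.15% of all promoters, a share counted by window and not by gene. The cAMP response element TGACGTCA occurred in Cbx8, apart from its E-box, and in 1.79% of all promoters. These matches describe letters in the windows and no binding was measured here.

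**Figure D1:**
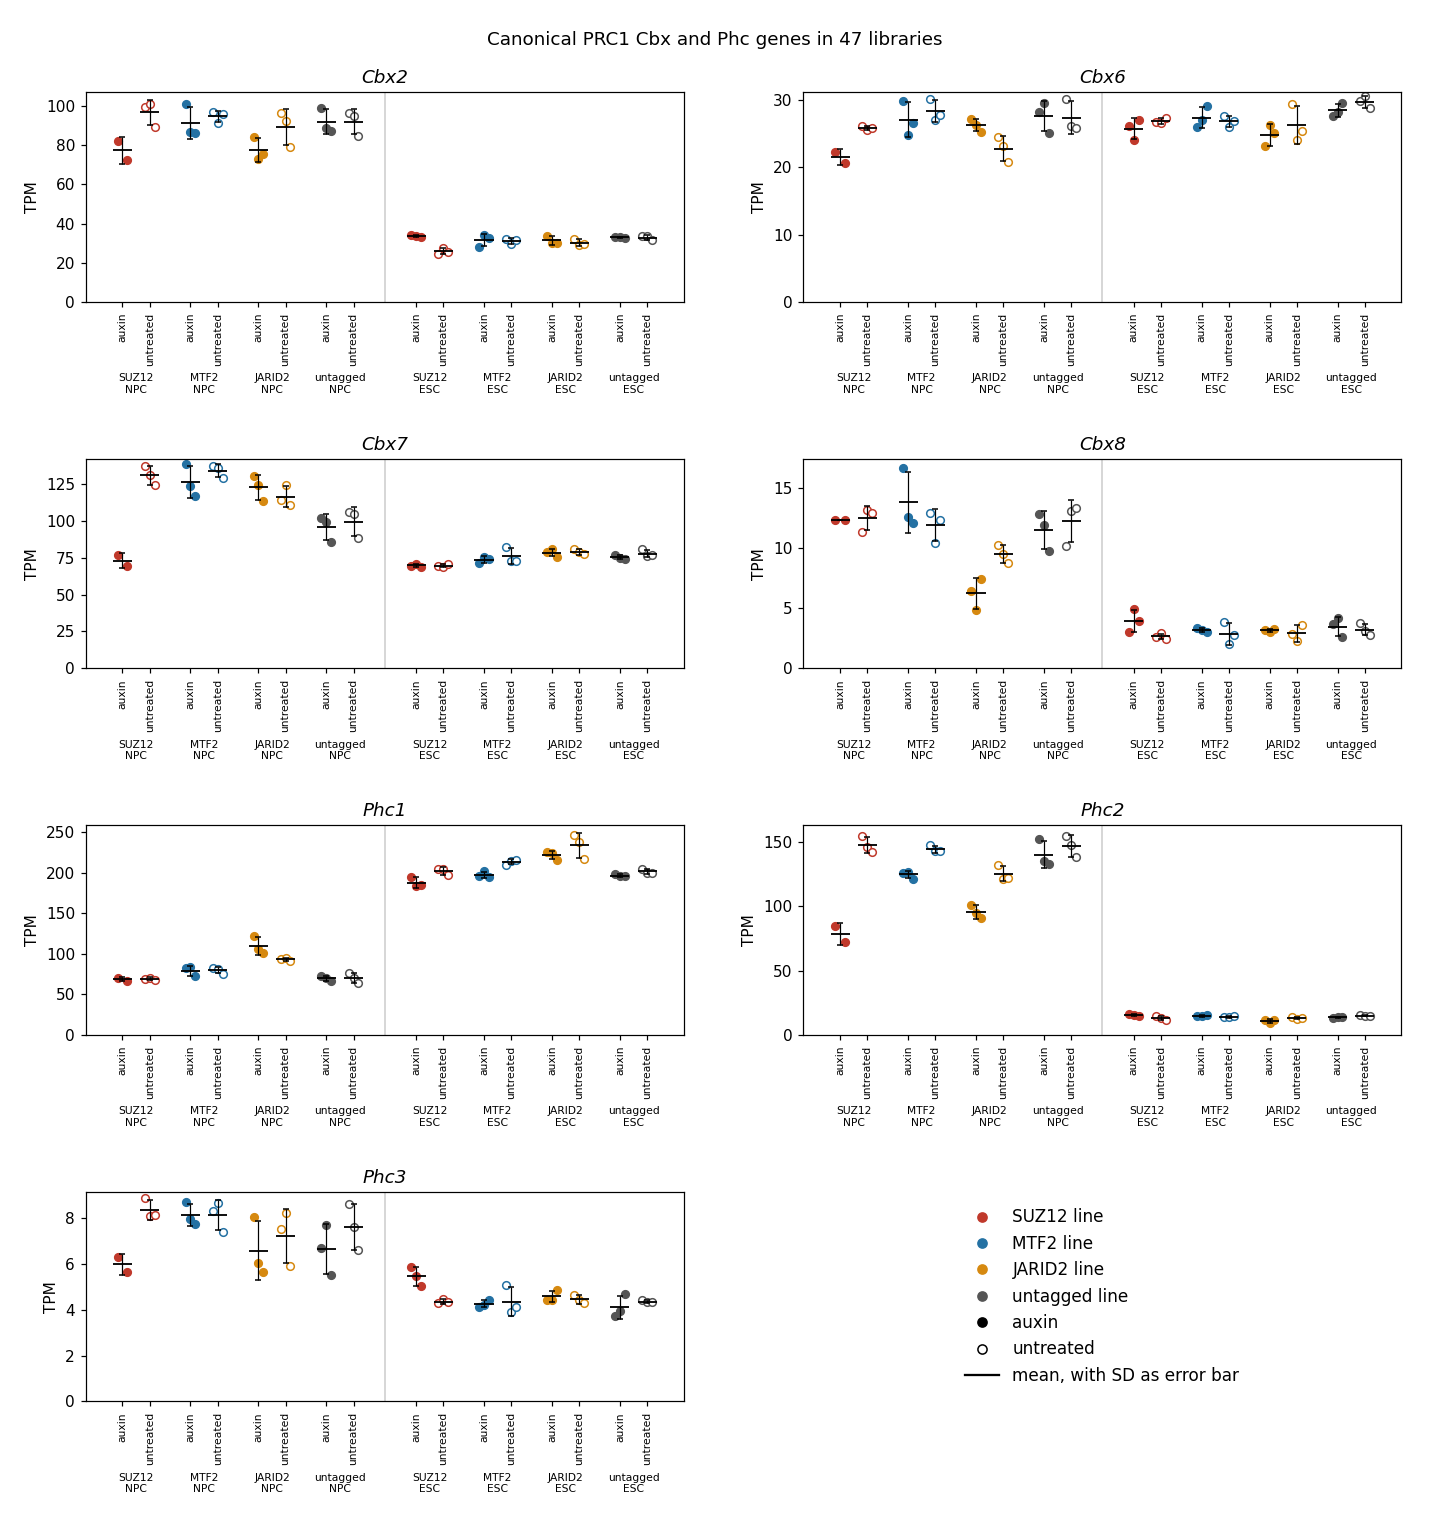
Level in TPM (vertical axis, from 0) of each of the 7 genes in 47 libraries, with NPC groups left of ESC groups, auxin filled and untreated open; lines are group means and error bars SD. Phc2 sits at 72.5 TPM or more in NPC and at 16.6 TPM or less in ESC, and Phc1 runs the opposite way.

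Among the polyhomeotic genes, Phc1 was at 63.5 to 122 TPM in the 23 NPC libraries (median 75.2) and at 183 to 247 TPM in the 24 ESC libraries (median 203). Phc2 was at 72.5 to 155 TPM in NPC (median 133) and at 8.90 to 16.6 TPM in ESC (median 13.7). The stages did not overlap for either gene, in opposite directions. Phc3 was the rarest of the 3, at 5.53 to 8.89 TPM in NPC and 3.73 to 5.88 TPM in ESC, where the ranges overlap.

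Among the chromobox genes, Cbx7 was highest in ESC, at 68.6 to 82.2 TPM, against 69.2 to 138 TPM in NPC. Cbx2 was at 72.7 to 101 TPM in NPC, against 24.6 to 34.1 TPM in ESC, without overlap. Cbx8 was the rarest, at 4.83 to 16.7 TPM in NPC and 1.99 to 4.89 TPM in ESC, where it rests on 18 to 55 reads per library. Cbx6, a CBX protein whose place in PRC1 is less studied, stayed within 20.7 to 30.2 TPM in NPC and 23.1 to 30.6 TPM in ESC. The stage ranges of Cbx8 overlapped only between its lowest NPC value, from JARID2 NPC with auxin, and its highest ESC value, and those of Cbx6 and Cbx7 overlapped more widely. With groups ordered by mean level, the ranges of neighbouring groups were separate in 6 of 15 pairs for Phc1 and for Phc2, in 3 for Cbx2, 2 for Cbx7, 1 each for Cbx8 and Phc3 and 0 for Cbx6.

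The first comparison was between stages without auxin, which asks how canonical PRC1 changes as stem cells become neural. In untagged cells, Phc2 was at 155, 148 and 138 TPM in NPC, against 15.3, 14.6 and 14.7 TPM in ESC. Phc1 was at 76.4, 70.1 and 63.5 TPM in NPC, against 204, 199.8 and 200.04 TPM in ESC. For both genes all 3 NPC libraries stood apart from all 3 ESC libraries. On the log2(TPM + 0.5) scale used for every log2 difference here, Phc2 rose by 3.26 ± 0.08 (SE) and Phc1 fell by 1.52 ± 0.06, with limma adjusted p of 2.72e-30 and 1.69e-23. In the SUZ12, MTF2 and JARID2 lines, Phc2 differed by 3.43, 3.33 and 3.23 and Phc1 by -1.54, -1.42 and -1.32, NPC minus ESC.

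The sum of the Phc genes was 225 ± 16 TPM in untagged NPC and 221 ± 3.01 TPM in untagged ESC (SD, n = 3 each). Its makeup differed: Phc2 gave 65.5% ± 0.865 of it in NPC and 6.74% ± 0.0858 in ESC, and Phc1 gave 31.1% ± 0.660 in NPC and 91.3% ± 0.0824 in ESC. The sum of the 4 listed Cbx genes was 231 ± 16.8 TPM in untagged NPC and 144 ± 4.08 TPM in ESC. Both sums are in TPM and were not tried under another scaling. The median over all genes tested was itself 0.28 higher (log2) in untagged NPC than in ESC.

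**Figure D2:**
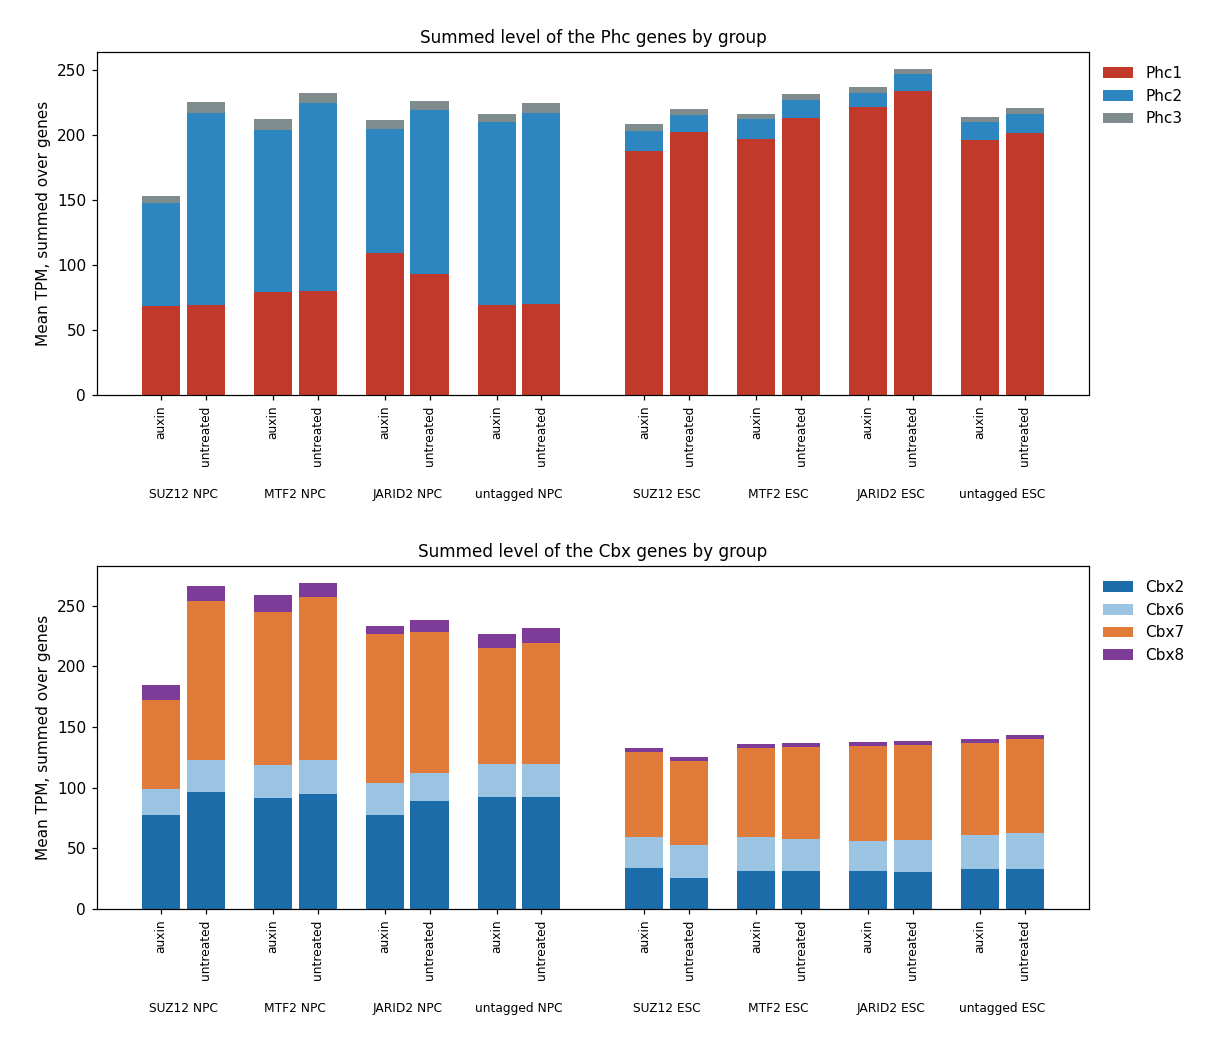
Mean TPM summed over the Phc genes (top) and the 4 Cbx genes (bottom) in each of the 16 groups, NPC left of ESC and auxin left of untreated, with segments for single genes. Phc bars of untagged cells are of like height in both stages with Phc2 and Phc1 in exchanged proportion, and the bars of SUZ12 NPC with auxin are the shortest of the NPC bars in both panels.

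Cbx2 in untagged cells was at 96.6, 95.2 and 84.6 TPM in NPC and 33.6, 33.6 and 31.5 TPM in ESC. Cbx8 was at 10.2, 13.1 and 13.3 TPM in NPC and 3.73, 3.12 and 2.79 TPM in ESC. Every NPC library exceeded every ESC library for both neighbouring genes, with differences of 1.47 ± 0.08 for Cbx2 (limma adjusted p = 2.23e-19) and 1.77 ± 0.18 for Cbx8 (adjusted p = 2.43e-11). Phc3 rose by 0.73 ± 0.12 (adjusted p = 1.46e-06), with 8.63, 7.63 and 6.62 TPM in NPC and 4.43, 4.34 and 4.33 TPM in ESC. Cbx7 was at 106, 104 and 88.2 TPM in NPC and 80.6, 76.0 and 76.6 TPM in ESC, a difference of 0.35 ± 0.07 (adjusted p = 1.45e-05), and in the SUZ12, MTF2 and JARID2 lines the difference was 0.90, 0.82 and 0.55. Cbx6 differed by -0.12 ± 0.08 (95% interval -0.27 to 0.03) and was not called.

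In the untagged line 5 members were higher and 1 lower of 7, against 76.1% of all genes called (47.6% higher and 28.5% lower), so the count lies near the background. The SUZ12 line (76.8% of genes called) and the MTF2 line (74.9%) also had 5 higher and 1 lower, and the JARID2 line (73.4%) had 5 higher and 2 lower, Cbx6 being the addition at -0.20 ± 0.08 (adjusted p = 0.0182), a call that ended without JARID2 ESC untreated replicate 1 or NPC untreated replicate 3 (-0.14 to -0.12). The median gene was itself higher in NPC by 0.28 to 0.36, and beyond it the untagged differences were 2.98 for Phc2, -1.81 for Phc1, 1.49 for Cbx8, 1.19 for Cbx2, 0.45 for Phc3, 0.07 for Cbx7 and -0.40 for Cbx6. With median-of-ratios scaling the Cbx7 call of the untagged line ended (difference 0.01, adjusted p = 0.857), and Cbx6 was lower in NPC of every line (-0.47, -0.28, -0.53 and -0.45 in SUZ12, MTF2, JARID2 and untagged), which in the MTF2 line turned its direction.

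**Figure D3:**
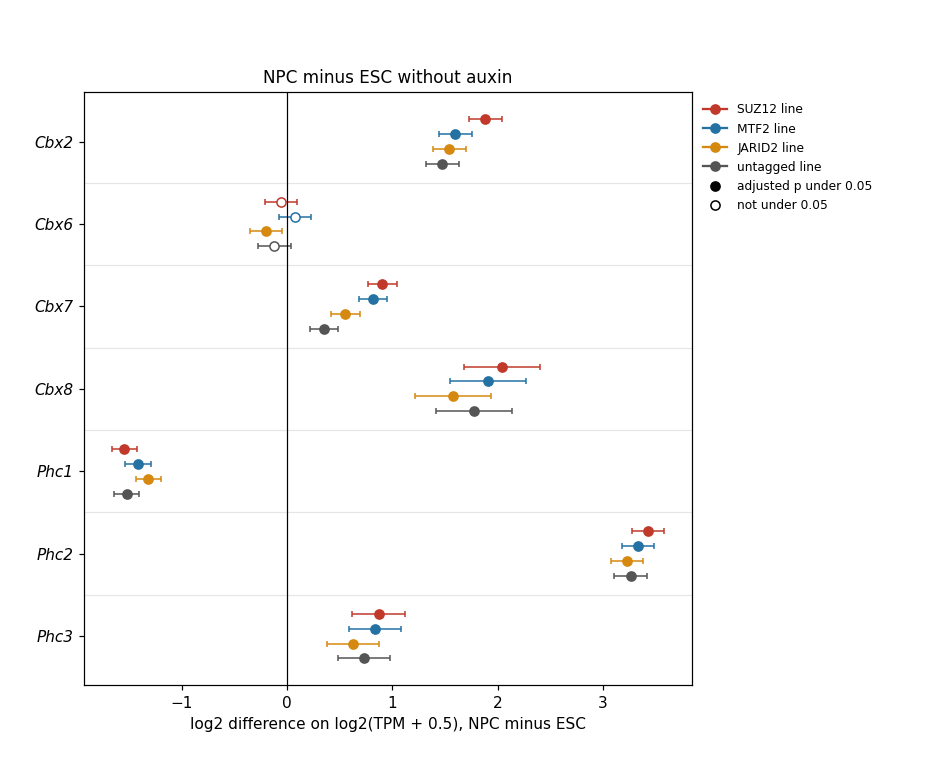
NPC minus ESC without auxin on log2(TPM + 0.5) for each gene in the 4 lines, with 95% intervals; filled points passed an adjusted p of 0.05. Phc2 lies between 3.23 and 3.43, Phc1 between -1.54 and -1.32, and Cbx6 near 0.

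The rest of the Polycomb machinery did not share a single direction between stages. Neither did all genes tested, of which 76.1% were called in the untagged line (47.6% higher and 28.5% lower). Of 7 other canonical PRC1 genes, 5 were higher in untagged NPC and 2 lower than in ESC (median difference 0.78, against 0.28 over all genes tested); the ubiquitin ligase gene Ring1 (1.95 ± 0.11) and its partner Bmi1 (1.84 ± 0.11) were among those higher. Pcgf2, another Ring partner, was -0.47 ± 0.08, and Scml2 was -0.82 ± 0.25. Of 22 variant PRC1 genes, 9 were higher and 11 lower, from Yaf2 (3.17 ± 0.11), a Ring-binding subunit, to Wdr5 (-1.68 ± 0.04). Of 12 PRC2 genes, 2 were higher and 8 lower, among them Suz12 (-1.96 ± 0.10) and Jarid2 (-1.53 ± 0.07), with a list median of -0.87.

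The second comparison set NPC differentiated with auxin against untreated NPC of the same line. In SUZ12 NPC with auxin, Phc2 was at 84.7 and 72.5 TPM, against 155, 147 and 142 TPM in untreated SUZ12 NPC. Cbx7 was at 76.8 and 69.2 TPM with auxin, against 137, 131 and 124 TPM untreated. Both genes were far below the untreated range in both auxin libraries, and Cbx7 was then within its ESC range of 68.6 to 82.2 TPM. Phc2 fell by 0.91 ± 0.07 (limma adjusted p = 6.95e-10) and Cbx7 by 0.84 ± 0.09 (adjusted p = 9.5e-08). In bulk RNA, fewer cells of a type and less RNA per cell cannot be told apart.

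Cbx2 in SUZ12 NPC was at 82.4 and 72.7 TPM with auxin, against 99.6, 101 and 89.6 TPM untreated. Cbx6 was at 22.3 and 20.7 TPM with auxin, against 26.2, 25.5 and 25.8 TPM untreated, and Phc3 was at 6.31 and 5.67 TPM, against 8.89, 8.11 and 8.16 TPM untreated. For these 3 genes the groups did not overlap either, with smaller falls of 0.32, 0.26 and 0.45 on the log2 scale (adjusted p = 0.00665, 0.0235 and 0.0206). Phc1 was at 70.7 and 66.7 TPM with auxin, against 69.2, 70.7 and 67.1 TPM untreated. Cbx8 was at 12.4 and 12.4 TPM with auxin, against 11.3, 13.1 and 12.9 TPM untreated. Neither gene's groups were apart, with 95% intervals of the difference of -0.18 to 0.17 for Phc1 and -0.36 to 0.34 for Cbx8.

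In all 5 of 7 members were lower with auxin and 0 higher, against 56.9% of all genes called and 33.0% called lower. The median difference over the members was -0.32, against -0.10 over all genes, and beyond the median gene Phc2 was -0.81 and Cbx7 -0.74. Of the 5 calls, those of Phc2 and Cbx7 alone held with median-of-ratios scaling (-0.77 and -0.69), which moves the median gene by over 0.1, and without auxin replicate 2. With voom 4 calls held, that of Cbx6 being lost (adjusted p = 0.193). Without untreated replicate 1, the Cbx6 and Phc3 calls ended and 3 members remained called.

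**Figure D4:**
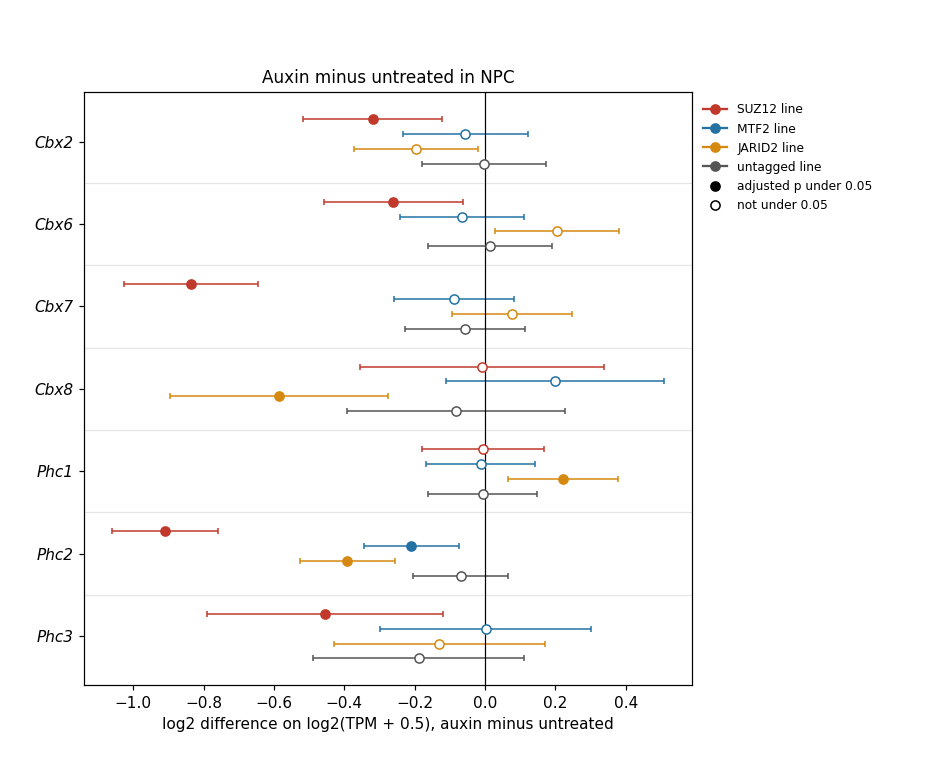
Auxin minus untreated in NPC on log2(TPM + 0.5) for each gene in the 4 lines, with 95% intervals; filled points passed an adjusted p of 0.05. The SUZ12 line stands lowest for Cbx7 (-0.84) and Phc2 (-0.91), the JARID2 line for Cbx8 (-0.59), and all untagged points are open.

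Markers of cell type moved with these falls. In SUZ12 NPC, the neuron markers summed to 492 to 545 TPM with auxin and 4915 to 5188 TPM untreated (10 of 10 called lower), and the neural progenitor markers to 278 to 289.7 TPM with auxin and 2021 to 2197 TPM untreated (10 of 10 lower). The pluripotency markers summed to 1434 to 1468 TPM with auxin and 38.1 to 42.0 TPM untreated (10 of 10 higher). Of 10 mesoderm markers 7 were tested and 6 were higher, with sums of 349 to 356 TPM with auxin and 58.4 to 63.4 TPM untreated and Mesp1 at 0 with auxin. Of 10 endoderm markers 7 were tested, 5 higher and 1 lower with auxin, with sums of 56.2 to 60.2 TPM with auxin, where Cer1 was at 0, and 37.1 to 43.4 TPM untreated, where Afp, Ttr and Cer1 were at 0. Of 10 neural crest markers 6 were higher and 1 lower with auxin, while their sum was 74.5 to 81.5 TPM with auxin and 126 to 133 TPM untreated, where Tfap2b was at 0. The part of these markers in the member changes was not tested.

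The Phc sum in SUZ12 NPC was 153 ± 11.9 TPM with auxin (SD, n = 2) and 225 ± 7.42 TPM untreated (SD, n = 3). Phc1 made up 44.9% ± 1.65 of it with auxin and 30.6% ± 0.835 untreated. Of the sum of the 4 listed Cbx genes, Cbx2 gave 42.0% ± 0.683 and Cbx7 39.6% ± 0.0180 with auxin. Untreated, the order was the reverse, at 36.4% ± 0.970 for Cbx2 and 49.2% ± 0.817 for Cbx7. The libraries of these shares did not overlap between treatments, but 2 against 3 cannot give an exact permutation p below 0.2, which is the value reached here. A higher Phc1 share was not particular to the SUZ12 line. In JARID2 NPC Phc1 made up 51.6% ± 0.884 of the Phc sum with auxin and 41.3% ± 1.07 untreated. The shares were 37.3% ± 1.27 and 34.3% ± 0.889 in MTF2 NPC, and 32.1% ± 0.772 and 31.1% ± 0.660 in untagged NPC.

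Cbx7 overlaps Apobec3, a cytidine deaminase gene on the opposite strand, in 100 of its 6487 exonic bases (1.54%). Libraries were strand-specific per the labels' protocols, but whether counting used the strand is not given in the sources used here. Apobec3 went the opposite way to Cbx7 in SUZ12 NPC, at 7.32 ± 0.309 TPM with auxin and 0.654 ± 0.221 TPM untreated (SD). It was far higher in ESC than in NPC, at 0.551 ± 0.258 TPM in untagged NPC and 48.9 ± 4.51 TPM in untagged ESC, again opposite to Cbx7, and its part in the Cbx7 values was not tested. Cbx6 overlaps Npcd on its own strand, which is listed at 0 in every library.

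Other Polycomb genes were called in SUZ12 NPC in both directions, in a comparison where 56.9% of all genes were called (33.0% lower). Of the 7 other canonical PRC1 genes, Ring1 was lower with auxin (-1.07 ± 0.10, adjusted p = 1.1e-08), Bmi1 was higher (0.28 ± 0.10, adjusted p = 0.0294), and 5 were not called. Of 22 variant PRC1 genes 4 were higher, including Pcgf5 (1.36 ± 0.17) and Bcor (0.73 ± 0.09), both of which define variant complexes, and 6 were lower, including Auts2 (-1.12 ± 0.12) and E2f6 (-0.55 ± 0.07). Of 12 PRC2 genes 6 were higher, led by Phf19 (2.40 ± 0.18), and 3 were lower, including the methyltransferase gene Ezh2 (-0.41 ± 0.07).

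In JARID2 NPC, Cbx8 was at 6.45, 4.83 and 7.42 TPM with auxin, against 10.3, 9.49 and 8.73 TPM untreated. Phc2 was at 101, 94.6 and 90.7 TPM with auxin, against 132, 122 and 122 TPM untreated. All auxin libraries were below all untreated ones for both genes. Cbx8 fell by 0.59 ± 0.15 (limma adjusted p = 0.00573) and Phc2 by 0.39 ± 0.06 (adjusted p = 9.91e-05), and both calls held without each library in turn. Phc1 was at 122, 106 and 100.5 TPM with auxin, against 93.8, 94.99 and 91.4 TPM untreated, a rise of 0.22 ± 0.07 (adjusted p = 0.0329) with no overlap. Its call ended without auxin replicate 1 (0.14) and without any 1 of the 3 untreated libraries (0.21 to 0.23).

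The other members were not called in JARID2 NPC: Cbx7 differed by 0.08 ± 0.08 (95% interval -0.09 to 0.25), Cbx6 by 0.20 ± 0.08 (0.03 to 0.38), Cbx2 by -0.20 ± 0.08 (-0.37 to -0.02) and Phc3 by -0.13 ± 0.14 (-0.43 to 0.17). Cbx6, whose groups did not overlap, was called higher with median-of-ratios scaling (0.26, adjusted p = 0.00631) and with voom (0.24, adjusted p = 0.0142). That makes, in the reported fit, 2 lower and 1 higher of 7, against 25.0% of all genes called. Of the 7 other canonical PRC1 genes, 3 were lower there and 0 higher. Neuron markers summed to 812 to 897 TPM with auxin and 2568 to 3035 TPM untreated (10 of 10 lower), and neural progenitor markers to 758 to 856 TPM with auxin and 1175 to 1452 TPM untreated (8 lower, 1 higher). Pluripotency markers summed to 468 to 511 TPM with auxin and 133 to 180.4 TPM untreated (8 of 10 higher). Of 7 tested mesoderm and 7 tested endoderm markers 1 each was lower and 0 higher, and of 10 neural crest markers 1 was higher and 1 lower. The part of these markers in the member changes was not tested.

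In MTF2 NPC, Phc2 was at 126, 127 and 122 TPM with auxin, against 148, 143 and 143 TPM untreated, with no overlap. It was the 1 member of 7 called, against 8.14% of all genes, at -0.21 ± 0.06 (limma adjusted p = 0.0495). That call ended without any 1 of the 6 libraries, with differences of -0.22 to -0.19. Cbx7 differed by -0.09 ± 0.08 (95% interval -0.26 to 0.08) and Cbx8 by 0.20 ± 0.15 (-0.11 to 0.51). Pluripotency markers summed to 151 to 171 TPM with auxin and 81.3 to 93.0 TPM untreated (4 of 10 higher), and neuron markers to 3314 to 3420.0 TPM with auxin and 4612 to 4788 TPM untreated (8 of 10 lower). Neural progenitor markers summed to 1531 to 1707 TPM with auxin and 1887 to 2016 TPM untreated (5 of 10 lower). Endoderm markers summed to 81.7 to 99.7 TPM with auxin and 56.3 to 66.9 TPM untreated, where Afp, Cer1 and Apoa1 were at 0 (5 of 7 tested higher), and mesoderm markers to 90.8 to 98.1 TPM with auxin and 59.9 to 72.1 TPM untreated, where Mesp1 was at 0 (4 of 7 tested higher). Of 10 neural crest markers 1 was lower and 0 higher. Beyond the effect of auxin in the untagged line, 0 of 10 neuron markers were called in the MTF2 line. There 1 of 10 pluripotency, 1 of 7 tested endoderm and 3 of 7 tested mesoderm markers were higher. Lower were 3 of 10 neural progenitor and 1 of 10 neural crest markers, against 1.40% of all genes called. The part of these markers in the Phc2 change was not tested.

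Untagged NPC measured what auxin does without a degron. With limma, 0 of 7 members were called there, 0 at an unadjusted p under 0.05 and 0 with voom on recovered reads, and 0% of all genes were called (1180 of 16469 passed an unadjusted p of 0.05, and 16 passed with voom). Neuron markers summed to 4290 to 4492 TPM with auxin and 4891 to 5258 TPM untreated, without overlap. Mesoderm sums were also apart, at 34.7 to 38.4 TPM with auxin and 38.7 to 47.2 TPM untreated. The sums of the other marker types overlapped, and 0 markers of any type were called. Phc2 was at 152, 136 and 133 TPM with auxin and 155, 148 and 138 TPM untreated, with a 95% interval of the difference of -0.20 to 0.07, and Cbx7 had an interval of -0.23 to 0.11. Beyond the untagged effect, the SUZ12 falls were -0.84 ± 0.10 for Phc2 (adjusted p = 4.38e-07), -0.78 ± 0.12 for Cbx7 (adjusted p = 2.54e-05) and -0.32 ± 0.13 for Cbx2 (adjusted p = 0.0491), with 3 of 7 members called, against 43.5% of genes. The Cbx2 call ended with a pseudocount of 0.1, without the filter, under median-of-ratios scaling (-0.20) and with voom (-0.21, adjusted p = 0.0526), and without any 1 of 7 of the 11 libraries (untagged untreated replicate 2 or 3, untagged auxin 1 or 2, SUZ12 untreated 1 or 2, SUZ12 auxin 2), with differences of -0.34 to -0.23. In the JARID2 line Phc2 alone was called (-0.32 ± 0.09, adjusted p = 0.0287; 9.04% of genes), a call that ended without untagged untreated replicate 2 or 3, untagged auxin 1, JARID2 untreated 1 or JARID2 auxin 2 or 3 (-0.33 to -0.26). Cbx8 was -0.50 ± 0.21 there (95% interval -0.94 to -0.06, adjusted p = 0.158) and was called under 0 of 7 alternatives and 0 of 12 leave-outs. Phc1 was 0.23 ± 0.11 there and was called with voom alone (adjusted p = 0.0488), and in the MTF2 line 0 members were called, 0 at an unadjusted p under 0.05 and 0 with voom (1.40% of genes).

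Auxin effects in NPC were also tested between tagged lines. The Cbx7 effect in the SUZ12 line minus that in the MTF2 line was -0.75 ± 0.12 (limma adjusted p = 4.59e-05), and minus that in the JARID2 line it was -0.91 ± 0.12 (adjusted p = 6.75e-06). For Phc2 the differences were -0.70 ± 0.10 and -0.52 ± 0.10 (adjusted p = 6.06e-06 and 0.000316). Cbx6 differed between SUZ12 and JARID2 by -0.46 ± 0.13 (adjusted p = 0.00798), a call ended by leaving out SUZ12 auxin replicate 2 (-0.41). Cbx8 differed between MTF2 and JARID2 by 0.78 ± 0.21 (adjusted p = 0.0209), a call ended by leaving out any 1 of MTF2 auxin replicate 1, MTF2 untreated replicate 2, JARID2 auxin replicate 2 and JARID2 untreated replicate 1 (0.63 to 0.73). Between SUZ12 and JARID2 the Cbx8 difference was 0.58 ± 0.22 and missed the threshold (adjusted p = 0.0556), though it passed with median-of-ratios scaling (0.66) and with voom (0.71). These counts of 2, 3 and 1 members stand against 43.0%, 31.1% and 9.64% of genes called for SUZ12 minus MTF2, SUZ12 minus JARID2 and MTF2 minus JARID2.

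In ESC, where auxin lasted 12 hours, a single member was called. Cbx2 in SUZ12 ESC was at 33.96, 33.9 and 33.3 TPM with auxin, against 24.6, 27.4 and 25.7 TPM untreated. All auxin libraries were higher, by 0.38 ± 0.07 (limma adjusted p = 0.00242; 1 of 7 members, against 6.83% of genes), and the call held without each library in turn. Untreated SUZ12 ESC were themselves 0.34 lower than untreated untagged ESC for Cbx2, which were at 33.6, 33.6 and 31.5 TPM, so the auxin level of the SUZ12 line lay beside the untagged level. Beyond the untagged effect the rise was 0.37 ± 0.10 and not called (adjusted p = 0.123). There 0 members were called, with 3 at an unadjusted p under 0.05, 1 with voom and 0.192% of genes called. For MTF2 and JARID2 ESC beyond untagged, 0 members were called by limma, at an unadjusted p under 0.05 or by voom, against 0.00662% and 0% of genes.

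Cbx8 in SUZ12 ESC was at 3.03, 4.89 and 3.91 TPM with auxin, against 2.59, 2.91 and 2.47 TPM untreated, a difference of 0.48 ± 0.20 that was not called (adjusted p = 0.154). Phc1 differed by -0.11 ± 0.04 and was called with median-of-ratios scaling and with voom, and Phc3 by 0.29 ± 0.11 and was called with voom. In MTF2, JARID2 and untagged ESC, 0 of 7 members were called by limma or voom, 1, 1 and 0 were at an unadjusted p under 0.05, and 1.09%, 0.298% and 0.212% of genes were called.

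Setting the auxin effect in NPC against that in ESC of the same line gave 4 of 7 members in the SUZ12 line, against 49.1% of genes. Phc2 was -1.12 ± 0.11, Cbx7 -0.84 ± 0.10, Phc3 -0.75 ± 0.18 and Cbx2 -0.69 ± 0.12 (limma adjusted p = 2.27e-10, 7.76e-09, 0.000856 and 4.82e-06), and all 4 calls held without each library. Put as the change from stem cell to neural culture, Cbx7 differed by 0.07 with auxin and 0.90 untreated in the SUZ12 line, Phc3 by 0.12 and 0.87, and Phc2 by 2.30 and 3.43. Phc1 differed by -1.44 with auxin and -1.54 untreated. The difference of its auxin effects was 0.10 ± 0.09 and not called (adjusted p = 0.359), but it was called with median-of-ratios scaling (0.32, adjusted p = 0.000979) and with voom (0.29, adjusted p = 0.000318).

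In the JARID2 line 2 of 7 members differed between stages in their auxin effect (15.0% of genes): Phc1 by 0.30 ± 0.08 (adjusted p = 0.0121) and Cbx8 by -0.71 ± 0.25 (adjusted p = 0.0498). Cbx6 (0.28 ± 0.11, adjusted p = 0.0717) was called with median-of-ratios scaling (0.35) and with voom (0.34), under both of which the Cbx8 call ended. The Cbx8 call also ended without any 1 of the 12 libraries other than JARID2 ESC untreated replicate 3 and JARID2 NPC auxin replicate 3 (-0.77 to -0.56) and that of Phc1 without JARID2 NPC auxin replicate 1 (0.22). In the MTF2 and untagged lines 0 members were called (2.97% and 0.00563% of genes), with 1 and 0 at an unadjusted p under 0.05 and 0 with voom in either.

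Untreated tagged lines were compared with the untagged line, since a degron or a line can differ before auxin is added. Untreated Cbx7 in NPC was at 137, 131 and 124 TPM in the SUZ12 line, 137, 136 and 129 in the MTF2 line and 114, 124 and 111 in the JARID2 line, against 106, 104 and 88.2 TPM in the untagged line. Every tagged library was above every untagged library, by 0.40 ± 0.08, 0.43 ± 0.08 and 0.23 ± 0.08 in the SUZ12, MTF2 and JARID2 lines (limma adjusted p = 0.0172, 0.00191 and 0.049). The 3 comparisons share their untagged libraries. The MTF2 call held without each library; the SUZ12 call ended without SUZ12 untreated replicate 1 or 2 or untagged replicate 3 (0.31 to 0.39), and the JARID2 call without JARID2 untreated replicate 1 or 2 or untagged replicate 2 or 3 (0.14 to 0.26). SUZ12 NPC with auxin, at 76.8 and 69.2 TPM, were also below the untagged NPC libraries for Cbx7.

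JARID2 NPC had the most genes called against the untagged line before auxin, with 2 members higher and 2 lower, against 23.8% of genes called. Phc1 was at 93.8, 94.99 and 91.4 TPM in untreated JARID2 NPC, against 76.4, 70.1 and 63.5 TPM in untagged NPC, higher by 0.42 ± 0.07 (adjusted p = 0.000227). Cbx6 was -0.26 ± 0.08 and Phc2 -0.23 ± 0.06 (adjusted p = 0.0301 and 0.0127), and both calls ended without untagged replicate 1 or JARID2 replicate 2, and that of Cbx6 also without JARID2 replicate 3 (-0.27 to -0.19 for Cbx6 and -0.21 to -0.19 for Phc2). The pluripotency sum was 133 to 180.4 TPM in untreated JARID2 NPC and 54.1 to 59.9 TPM in untagged NPC (8 of 10 higher). The neuron sum was 2568 to 3035 TPM in untreated JARID2 NPC and 4891 to 5258 TPM in untagged NPC (10 of 10 lower), and the neural progenitor sum 1175 to 1452 TPM in JARID2 NPC and 1913 to 2106 TPM in untagged NPC (7 of 10 lower). Of 7 tested endoderm markers 7 were higher in JARID2 NPC, of 7 tested mesoderm markers 5 were higher, and of 10 neural crest markers 2 were higher and 1 lower. Endoderm sums were 61.3 to 75.8 TPM in JARID2 NPC, with Afp at 0, and 35.1 to 36.5 TPM in untagged NPC, with Afp and Ttr at 0. Mesoderm sums were 64.3 to 84.98 TPM in JARID2 NPC and 38.7 to 47.2 TPM in untagged NPC, with Mesp1 at 0 in both. The part of these markers in the member differences was not tested. The Cbx7 calls of the SUZ12 and MTF2 lines were each 1 of 7, against 0.814% and 8.76% of genes.

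In untreated ESC, Phc1 was higher in the JARID2 line by 0.21 ± 0.04 (adjusted p = 0.00119; 1 of 7, against 6.31% of genes), with 247, 237 and 217 TPM, against 204, 199.8 and 200.04 TPM in untagged ESC. Cbx2 was lower in the SUZ12 line by 0.34 ± 0.07 (adjusted p = 0.0125; 1.65% of genes), a call that ended without SUZ12 untreated replicate 1 or untagged replicate 1 or 2 (-0.32 to -0.30). In the MTF2 line 0 members were called, 1 at an unadjusted p under 0.05 and 0 with voom, against 15.7% of genes.

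Similarity of pattern is given as Pearson's r over group means of log2(TPM + 0.5), as a description with no test, since groups share lines and the stage difference dominates. Over 16 groups, the genes closest to Phc2 were Map7d1 (0.999), Meis3 (0.998) and Maml3 (0.998), and those closest to Phc1 were Espl1 (0.994), Aff1 (0.990) and Gtpbp6 (0.990). The closest genes to Cbx2, Cbx7, Cbx8 and Phc3 were Gnas (0.997), Dync1h1 (0.961), Nfia (0.993) and Akap13 (0.989), and none came above 0.837 (B4galt3) for Cbx6. Within the 8 NPC groups, Phc2 was closest to Parp6 (0.998), Kif3c (0.998) and Chrnb4 (0.998), Phc1 to Arid3b (0.989), Vangl1 (0.986) and Tcf7l1 (0.982), Cbx7 to Pou2f1 (0.98), Tle4 (0.960) and Srd5a3 (0.956), and Cbx8 to Tmem98 (0.984), Bdh1 (0.982) and Eef2k (0.980). There Cbx2, Cbx6 and Phc3 were closest to Dip2c (0.995), Zfp69 (0.978) and Itch (0.989). Among the members themselves within NPC, r was 0.957 between Cbx2 and Phc2 and -0.87 between Cbx8 and Phc1, while the neighbours Cbx2 and Cbx8 had 0.573 and Cbx6 and Cbx7 0.555.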

How the data were processed

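Polyadenylated RNA of 47 libraries was measured by strand-specific sequencing, per the labels' protocols. The authors deposited TPM for 35856 gene symbols, with each library summing to 1000000. STAR 2.6.1d and mm10 are the aligner and build named in the submitters' processing notes; for the counting tool and annotation, no source used here names one. Symbols were placed on GENCODE M21, where all 7 members matched. Groups came from the labels; for MTF2 and JARID2 NPC the labels other than the title, which says day 0, were followed, and title replicates 1 and 2 of SUZ12 NPC with auxin are numbered 2 and 3 in the library names.

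For each gene, TPM values moved in steps worth 1 read, which gave whole reads for 100% of genes above 0 (tolerance 0.001) and the depth (median 5.39 M reads). Intervals on such reads would cover counting error only. Spread within groups exceeded counting error (chi-square per degree of freedom 1.07 to 3.76) and 0 pairs of libraries were identical.

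Genes that reached 1 TPM in 2 libraries of a fit were tested on log2(TPM + 0.5) with limma 3.58.1 in R 4.3.3 (trend and robust), fitting a stage's 8 groups together (15104 genes in ESC, 16469 in NPC) or all 16 groups for stage comparisons (17760 genes). All 7 members passed this filter in each fit. A gene was called at a two-sided Benjamini-Hochberg adjusted p under 0.05 over all genes of a fit; 31 comparisons were made, and every adjusted p is limma's. The fit was run on simulated counts for auxin in SUZ12 NPC alone, with fewer changed genes than were called in the data. Its outcome is not reported here. Shares of a family's TPM were compared with exact permutation tests in scipy 1.17.1 (two-sided; the smallest p is 0.1 for 3 against 3), none of which could reach 0.05.

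Beside the members, called genes of 3 fixed lists (other canonical PRC1, variant PRC1, PRC2) were counted and up to 3 per direction and list with the smallest p were eligible to be named in SUZ12 NPC and in untagged NPC minus ESC; the most alike genes were ranked by Pearson r, leaving out unnamed gene models, and of the 3 closest to a member the closest alone is printed for some. Cell type markers were 10 genes per type. Of the listed genes eligible to be named, 1 is not reported here. The members and lists were chosen with earlier results of these data known. The alternatives tried were the compared groups only, median-of-ratios scaling, a pseudocount of 0.1 or of 1, no filter, voom on recovered reads, a replicate block, and leaving out each library in turn (94 fits). Same-numbered libraries did not deviate together in every pair (r over 0.1), so the numbers were not taken to pair samples.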

Additional observations from a re-analysis of the deposited data

Results flagged for a closer look

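Each value here is a tested difference between auxin effects (limma adjusted p under 0.05, log2). Against the effect in untagged NPC, the SUZ12 line differed by -0.84 for Phc2, -0.78 for Cbx7 and -0.32 for Cbx2, and the JARID2 line by -0.32 for Phc2. The Cbx2 call and the JARID2 call of Phc2 ended when some single libraries were left out. That of Cbx2 also ended under median-of-ratios scaling and with voom. Between NPC and ESC, the effect in the SUZ12 line differed by -1.12 for Phc2, -0.84 for Cbx7, -0.75 for Phc3 and -0.69 for Cbx2. In the JARID2 line it differed by -0.71 for Cbx8 and 0.30 for Phc1. That Cbx8 call ended under median-of-ratios scaling, with voom and without most single libraries, and the Phc1 call without JARID2 NPC auxin replicate 1. Stage and length of exposure cannot be told apart in these.

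Between tagged lines in NPC, the SUZ12 effect differed from that of MTF2 by -0.75 for Cbx7 and -0.70 for Phc2. It differed from that of JARID2 by -0.91 for Cbx7, -0.52 for Phc2 and -0.46 for Cbx6. The MTF2 effect differed from that of JARID2 by 0.78 for Cbx8. These Cbx6 and Cbx8 calls ended when some single libraries were left out.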

How the results depend on the processing

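Of 59 called member differences, 40 kept their call under every alternative and without each library. The tally of alternative values covers 78 member results that were followed, not every member in every comparison. Of their 1176 alternative values, 1051 kept direction and side of the threshold, 90 lost the call, 33 gained it and 2 reversed. The reversals were Cbx6 in NPC minus ESC of the MTF2 line, -0.28 with median-of-ratios scaling and -0.13 with voom.

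Counts of called members that moved by more than 1.5 times are given first, and the cause was not tested. With median-of-ratios scaling 2 members were called with auxin in SUZ12 ESC (1 as reported), 2 in SUZ12 NPC (5) and 3 for MTF2 minus JARID2 (1). With voom there were 3 in SUZ12 ESC (1), 1 beyond untagged in SUZ12 ESC (0), 2 beyond untagged in JARID2 NPC (1) and 2 for MTF2 minus JARID2 (1). The MTF2 NPC count was 0 (1) with a pseudocount of 0.1, without the filter and with the compared groups only, and the JARID2 difference between stages was 1, 1 and 0 (2) under the same settings. With the compared groups only, fewer libraries estimate the spread, and the count was also 0 beyond untagged in JARID2 NPC (1), 0 for untreated minus untagged in SUZ12 ESC (1), JARID2 ESC (1) and SUZ12 NPC (1), 2 in JARID2 NPC (4) and 0 for MTF2 minus JARID2 (1). Smaller moves under scaling or voom were 4 with voom in SUZ12 NPC (5), 2 with either beyond untagged in SUZ12 NPC (3), 4 with either in JARID2 NPC (3), 4 with either for SUZ12 minus JARID2 (3) and 5 with either for the SUZ12 difference between stages (4). For NPC minus ESC, 7 were called with either in the SUZ12 line (6), with scaling in the MTF2 line (6) and with voom in the untagged line (6).

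Leaving out 1 library gave 2 to 5 called members in SUZ12 NPC, 0 in MTF2 NPC and 2 to 3 in JARID2 NPC with auxin. Beyond untagged it gave 2 to 4 in SUZ12 NPC and 0 to 1 in JARID2 NPC; between stages 0 to 2 in the JARID2 auxin effect. For untreated minus untagged it gave 0 to 1 in SUZ12 ESC, 1 to 2 in JARID2 ESC, 0 to 1 in SUZ12 NPC, 1 to 2 in MTF2 NPC and 1 to 3 in JARID2 NPC. For SUZ12 minus JARID2 it gave 2 to 4 and for MTF2 minus JARID2 0 to 1. Where an arm kept 1 library, it was assumed to vary like the other groups.

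With a replicate block on the title numbers, 1 member was called for the MTF2 difference between stages (0) and 2 for untreated MTF2 NPC minus untagged (1), and the block ended no call of a member. Correlations of same-numbered libraries did not pass 0.1 in every pair, so the numbers were not taken to pair samples. They ran from -0.15 (SUZ12 ESC, replicate 2) to 0.22 (untagged NPC, replicate 1), which cannot exclude pairing within single groups. Depth limits Cbx8 in ESC, where 18 to 55 reads stand behind a value.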
